A study of Homo sapiens with 9 samples.

Results

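The S100 proteins are small calcium-binding proteins that act as pairs, each subunit carrying paired EF-hand loops. S100A8 and S100A9 join to form calprotectin, which neutrophils store in bulk and which stressed or inflamed epithelium also makes. Outside the cell calprotectin withholds zinc and manganese from microbes and is a ligand of the receptors TLR4 and RAGE, and in breast carcinoma both subunits are found in some tumours and not in others. Most S100 genes lie side by side in the epidermal differentiation complex on chromosome 1, between genes of the skin barrier.

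Of the 18417 genes that had a probe set carrying their symbol alone, 10 S100 genes are described here: S100A8, S100A9, S100A12, S100A7, S100P, S100A2, S100A10, S100A11, S100A14 and S100A16. They were chosen by the signals of S100A8 and S100A9, lower on the TFPIα arrays than on the empty vector arrays, so the values of that comparison are given below as a description. Each of the 10 had a single probe set of its own.

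By their labels the arrays came from SK-BR-3, a human breast adenocarcinoma line that the labels place among luminal-like lines. Cells had been stably transfected with pcDNA3.1/V5/His-pTOPO holding the cDNA of TFPIα, the secreted form of tissue factor pathway inhibitor, or of TFPIβ, its form anchored to the cell surface, or with the same vector empty. All 3 groups therefore carried the vector and had been under drug selection (puromycin in the labels, neomycin in the methods of the study), and the transfected lines were grown as pools. Each group had 3 arrays numbered 1, 2 and 3, from separate RNA isolations. P-values measure the spread between these isolations, since nothing says that a transfection was repeated. Values are log2 signals, so a difference of 1 is a 2-fold difference, and a signal of a given probe set can be compared between arrays but not with that of another probe set.

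TFPI itself was not higher on the arrays labelled as TFPI overexpression, with log2 signals of 5.66, 5.81 and 5.51 for TFPIα and of 5.55, 5.79 and 5.81 for TFPIβ, against 5.81, 6.48 and 6.45 for empty vector. The study puts this down to probes outside the coding part that the transfected cDNAs held. It reported TFPI as higher in both groups when differences were computed with the PLIER algorithm, which drops probes of low intensity. It also followed the overexpression with other assays. Neither is analysed here. The TFPI signal used here is therefore no check of the labels, and groups are named by them. Over the 9 arrays the log2 signal averaged 12.64 for the basal keratin KRT5 and 12.43 for KRT14, 10.40 and 5.86 for the luminal keratins KRT18 and KRT8, and 5.88 for ERBB2, the gene amplified in SK-BR-3. The luminal keratin KRT19 averaged 4.88. Of 14 luminal and ERBB2-amplified breast markers with a probe set, 11 reached a signal of 5 on some array. EPCAM, SPDEF and TFAP2B did not. The 9 of the 11 with a mean of at least 5, which leaves out KRT19 and FOXA1, averaged between 6.62 and 6.81 on the arrays. Over all 11 the average was lower on every array, down to 6.29. The average of 6 basal epithelial markers lay between 9.52 and 10.15. With genes ordered by mean signal, KRT5 stood at percentile 99.97, KRT14 at 99.95 and KRT18 at 98.7. ERBB2 stood at 59.0, KRT8 at 58.7 and KRT19 at 41.7. High basal keratins and a middling ERBB2 differ from what the label implies. Such an order mixes probe sets that are not on 1 scale, so it does not settle the cell type, and the match of the arrays to the label was not tested. The arrays were alike in scale, with medians between 4.78 and 4.88, and correlated at 0.953 to 0.990 within groups and at 0.944 to 0.987 between them.

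S100A8, S100A12 and S100A9 sit next to each other on chromosome 1, and the stretches before their starts, with that of S100A7 further along, are printed because the first 3 had lower signals in both TFPI groups. Each runs 250 bases up to the start of the gene (RefSeq, GRCh38.p14), and capitals mark matches to 4 motifs searched on both strands: TTNCNNAA for C/EBP factors, GGGA and CC with NNNN between them for NF-kB, TTCNNNGAA for STAT factors and TGANTCA for AP-1.
S100A8, chr1:153391074-153391323, minus strand: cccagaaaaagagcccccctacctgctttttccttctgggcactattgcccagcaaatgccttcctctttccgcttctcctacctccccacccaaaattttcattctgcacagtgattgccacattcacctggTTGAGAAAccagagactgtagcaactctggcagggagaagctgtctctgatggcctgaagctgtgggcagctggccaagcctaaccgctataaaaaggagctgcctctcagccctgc
S100A9, chr1:153357604-153357853, plus strand: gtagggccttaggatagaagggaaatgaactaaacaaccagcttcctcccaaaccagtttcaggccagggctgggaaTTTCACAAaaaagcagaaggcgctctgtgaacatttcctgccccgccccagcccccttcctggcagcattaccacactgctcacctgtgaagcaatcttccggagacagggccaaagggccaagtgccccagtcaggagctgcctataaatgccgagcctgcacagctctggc
S100A12, chr1:153375622-153375871, minus strand: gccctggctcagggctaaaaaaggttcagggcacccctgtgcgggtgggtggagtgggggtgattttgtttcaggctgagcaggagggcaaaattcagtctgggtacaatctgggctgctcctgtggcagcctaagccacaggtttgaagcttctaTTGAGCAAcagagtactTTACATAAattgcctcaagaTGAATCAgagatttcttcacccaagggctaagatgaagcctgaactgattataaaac
S100A7, chr1:153460652-153460901, minus strand: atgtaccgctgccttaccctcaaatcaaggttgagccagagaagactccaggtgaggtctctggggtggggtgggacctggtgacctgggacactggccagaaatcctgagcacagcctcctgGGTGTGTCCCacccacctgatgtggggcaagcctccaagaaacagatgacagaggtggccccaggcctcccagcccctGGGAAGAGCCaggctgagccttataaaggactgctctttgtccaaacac

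In S100A8 the capitals are 1 C/EBP match beginning 117 bases before the start, and in S100A9 they are 1 C/EBP match at 173 bases. S100A12 held 2 C/EBP matches, at 94 and 77 bases, and 1 AP-1 match at 57 bases. S100A7 held no C/EBP match and 2 NF-kB matches, at 127 and 49 bases. No STAT match was found in these windows. S100A8 has 3 RefSeq starts within 212 bases, of which the middle one is printed, and windows before the other 2 held 0 and 2 C/EBP matches. Such matches are common: among 35116 promoters of the same length 33.2% held the C/EBP motif, 22.6% the NF-kB motif, and 6.57% each the STAT and AP-1 motifs.

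Both subunits of calprotectin had lower signals on the TFPIα arrays, S100A9 by more than S100A8, and the size differed widely between the 3 TFPIα arrays. S100A8 had log2 signals of 10.28, 9.66 and 11.78 on TFPIα arrays 1, 2 and 3, of 11.22, 11.38 and 11.22 on the TFPIβ arrays, and of 11.98, 11.84 and 11.98 on the empty vector arrays. TFPIα 1 and 2 were the lowest of all 9 arrays, TFPIα 3 lay just under the empty vector arrays, and the 3 TFPIβ arrays lay close together between them. S100A9, the larger subunit, had log2 signals of 7.36, 6.76 and 9.62 on the TFPIα arrays, of 8.60, 8.59 and 8.72 on the TFPIβ arrays, and of 10.20, 9.59 and 9.98 on the empty vector arrays. The order of the arrays was alike, except that TFPIα 3 lay just above the lowest empty vector array, so that TFPIα and empty vector overlapped for S100A9.

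**Figure D1:**
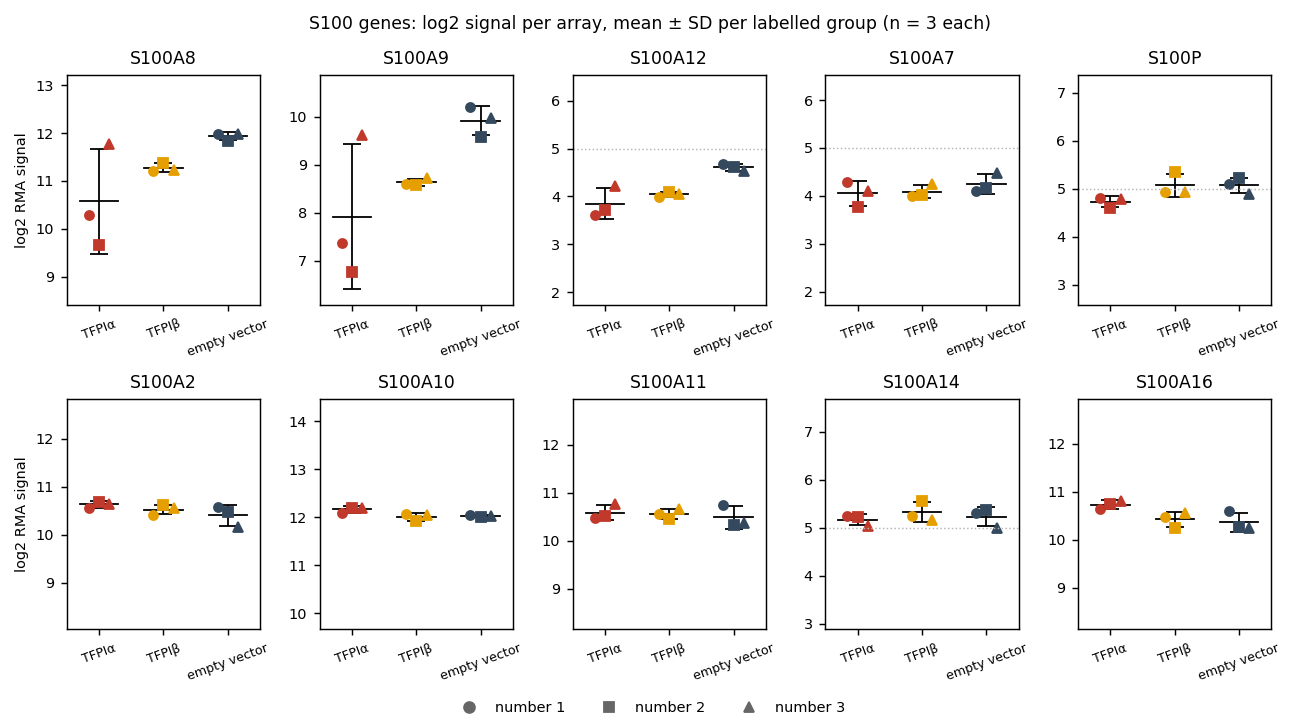
Log2 signal of each of the 10 S100 genes, 1 panel per gene, for the arrays labelled TFPIα, TFPIβ and empty vector; points are arrays, the marker shape gives the array's number, and the lines give the mean and SD (n = 3 each), with a dotted line at the filter of 5. Every panel spans the same range of log2 signal, and S100A8 and S100A9 spread most, with TFPIα 1 and 2 at the bottom of both.

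The mean log2 signal of S100A8 was 10.57 ± 1.09 on TFPIα arrays and 11.93 ± 0.08 on empty vector arrays (SD, n = 3 each), which is -1.36 as a log2 fold change (SE 0.45), or 2.56-fold lower. The mean of S100A9 was 7.92 ± 1.51 on TFPIα arrays and 9.92 ± 0.31 on empty vector arrays, a log2 fold change of -2.01 (SE 0.62), or 4.02-fold lower. By array number, the TFPIα array minus the empty vector array gave -1.69, -2.18 and -0.20 for S100A8 and -2.84, -2.83 and -0.35 for S100A9. Array 3 thus carried little of the difference: with TFPIα 3 left out the log2 fold changes were -1.96 and -2.86, and with TFPIα 2 left out they were -0.90 and -1.43. Ordered from the lowest of 17482 log2 fold changes, S100A9 was number 7 and S100A8 number 29. Low places follow from the choice of both genes on this comparison. In cultures such as these, fewer cells that express a gene and less RNA per cell cannot be told apart.

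The TFPIβ arrays, which played no part in the choice of genes, also had lower signals for both subunits, with a smaller and more even difference that did not pass the test. S100A8 averaged 11.27 ± 0.09 on TFPIβ arrays against 11.93 ± 0.08 on empty vector arrays (SD, n = 3 each), with TFPIβ minus empty vector at -0.66 (SE 0.45, 95% interval -1.68 to 0.36). S100A9 averaged 8.64 ± 0.08 on TFPIβ arrays against 9.92 ± 0.31 on empty vector arrays, a log2 fold change of -1.28 (SE 0.62, 95% interval -2.71 to 0.14), or 2.44-fold lower. No TFPIβ array overlapped the empty vector arrays in either gene, and by number the differences were -0.76, -0.46 and -0.76 for S100A8 and -1.60, -0.998 and -1.25 for S100A9. The limma adjusted p was 1.00 for each (unadjusted p = 0.176 for S100A8 and 0.0717 for S100A9, n = 3 arrays a group). These standard errors share the spread of the TFPIα arrays, and in a fit of the TFPIβ and empty vector arrays alone they were 0.10 and 0.17, with limma adjusted p = 0.633 and 0.594. The empty vector arrays are the same as in the comparison that chose the genes, so the 2 comparisons are not independent. TFPIβ minus TFPIα was 0.70 (SE 0.45) for S100A8 and 0.72 (SE 0.62) for S100A9, and this was not tested because the TFPIα arrays had been used to choose the genes.

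The 2 subunits moved together over the 9 arrays. Pearson's r between S100A8 and S100A9 was 0.981 over 9 arrays (Spearman's rho 0.917), 0.979 after the group means were taken off, and 0.969 without TFPIα 1 and 2. These are descriptions, since the arrays share cell pools and both genes were picked for the same pattern.

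S100A12, or calgranulin C, a RAGE ligand of neutrophils encoded between the calprotectin genes, showed the same order of arrays at a dim signal. Its log2 signals were 3.62, 3.71 and 4.23 on TFPIα arrays, 3.99, 4.09 and 4.05 on TFPIβ arrays, and 4.67, 4.61 and 4.54 on empty vector arrays. All 9 lay under the filter of 5, so S100A12 did not enter the fit, and neither TFPI group overlapped the empty vector arrays. With no filter its log2 fold change was -0.75 (SE 0.15) for TFPIα and -0.56 (SE 0.15) for TFPIβ (limma adjusted p = 0.987 for TFPIβ). Its r with the mean of S100A8 and S100A9 was 0.923 over 9 arrays, and 0.899 after the group means were taken off. How far a probe set this dim reflects S100A12 RNA, rather than signal of the neighbouring S100 genes, was not tested.

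S100A7, or psoriasin, the antimicrobial protein of psoriatic skin and of some breast carcinomas, was also under the filter. Its log2 signals were 4.30, 3.78 and 4.10 on TFPIα arrays, 3.99, 4.02 and 4.25 on TFPIβ arrays, and 4.09, 4.16 and 4.49 on empty vector arrays. The 3 groups overlapped, with log2 fold changes of -0.19 for TFPIα and -0.16 for TFPIβ. Its near-identical copy S100A7A may share its probes' signal.

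S100A9, S100A12 and S100A8 follow each other in the cluster. Going along chromosome 1 of GRCh38.p14, S100A9 starts at -33.2 kb and S100A12 at -15.5 kb from the start of S100A8, with no other S100 gene between. On the side of S100A9 the next gene plotted is PGLYRP4, which encodes a peptidoglycan recognition protein and had log2 fold changes of 0.29 for TFPIα and 0.14 for TFPIβ at a signal under the filter. On the other side S100A7A had -0.11 and -0.23, also under the filter. The genes beyond, at 144.9 to 237.4 kb from S100A8, include S100A6, S100A4, S100A2, S100A16, S100A14 and S100A13.

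**Figure D2:**
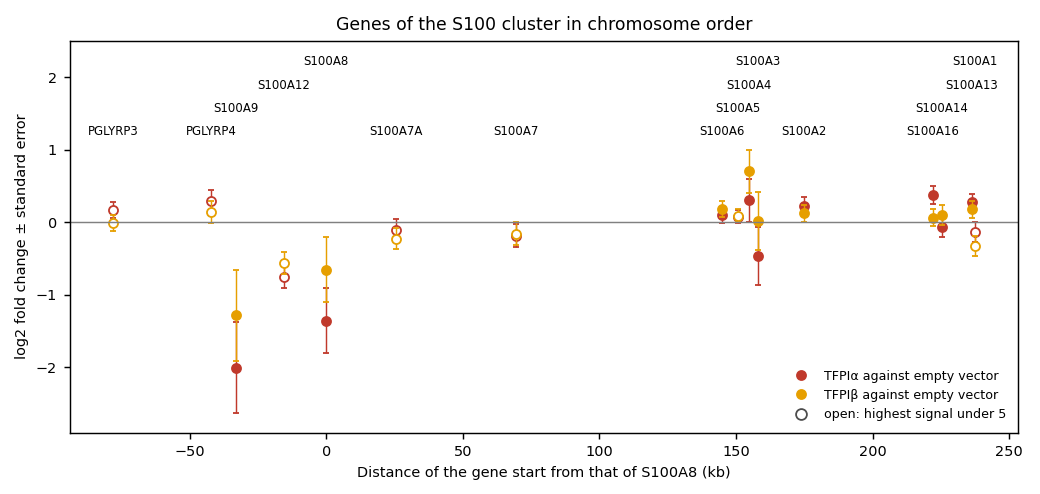
Log2 fold change with its standard error (limma) against the distance of each gene's start from that of S100A8 in kb, for TFPIα and for TFPIβ against empty vector; open circles are probe sets whose highest signal was under 5. The adjacent S100A9, S100A12 and S100A8 are the lowest points in both comparisons, and the genes to their right lie nearer to 0 or above it.

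The members encoded further along the cluster, or outside it, had small differences. S100A2, a nuclear protein of basal keratinocytes and a target of p53, had log2 signals of 10.55, 10.69 and 10.65 on TFPIα arrays, 10.41, 10.61 and 10.55 on TFPIβ arrays, and 10.57, 10.48 and 10.16 on empty vector arrays. The groups overlapped, with log2 fold changes of 0.23 (SE 0.12) for TFPIα and 0.12 (SE 0.12, limma adjusted p = 1.00) for TFPIβ. S100A14, an epithelial member without strong calcium binding, had signals of 5.25, 5.22 and 5.04 on TFPIα arrays, 5.25, 5.56 and 5.17 on TFPIβ arrays, and 5.32, 5.37 and 5.00 on empty vector arrays. These overlapped too, with log2 fold changes of -0.07 for TFPIα and 0.09 for TFPIβ (SE 0.14 each).

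S100A16, a widely expressed member, was higher on every TFPIα array than on any other array. Its log2 signals were 10.64, 10.74 and 10.81 on TFPIα arrays, 10.47, 10.25 and 10.55 on TFPIβ arrays, and 10.59, 10.26 and 10.24 on empty vector arrays. TFPIα minus empty vector was 0.37 (SE 0.12) and TFPIβ minus empty vector 0.06 (SE 0.12, limma adjusted p = 1.00). TFPIβ minus TFPIα was -0.31 (SE 0.12, 95% interval -0.59 to -0.02), which did not pass the limma test over all probe sets (adjusted p = 0.532).

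The 2 annexin partners differed little. S100A10, which holds annexin A2 in a complex at the plasma membrane that binds plasminogen, had log2 signals of 12.09, 12.20 and 12.20 on TFPIα arrays, 12.07, 11.92 and 12.04 on TFPIβ arrays, and 12.04, 12.01 and 12.02 on empty vector arrays. The TFPIα arrays lay above the empty vector arrays, but by only 0.14 (SE 0.08), and TFPIβ minus empty vector was -0.02 (SE 0.08). ANXA2 itself was higher by 0.26 on TFPIα arrays, again without overlap, and by 0.04 on TFPIβ arrays. S100A11, the partner of annexin A1, had signals of 10.48, 10.52 and 10.76 on TFPIα arrays, 10.57, 10.46 and 10.66 on TFPIβ arrays, and 10.76, 10.34 and 10.37 on empty vector arrays, with overlap throughout. Its log2 fold changes were 0.10 for TFPIα and 0.08 for TFPIβ (SE 0.14 each), and ANXA1 had 0.22 and 0.17.

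S100P, a RAGE ligand of placenta and of several carcinomas, is encoded on chromosome 4, apart from the others. Its log2 signals were 4.80, 4.61 and 4.78 on TFPIα arrays, 4.94, 5.35 and 4.93 on TFPIβ arrays, and 5.09, 5.22 and 4.89 on empty vector arrays. The TFPIα arrays were the lowest 3 of the 9, with a difference of -0.34 (SE 0.14) from empty vector, while TFPIβ minus empty vector was 0.01 (SE 0.14, limma adjusted p = 1.00). TFPIβ minus TFPIα was 0.34 (SE 0.14, 95% interval 0.02 to 0.67), not past the limma test (adjusted p = 0.532). Several of these signals lay under 5, where the array separates levels poorly. All 3 TFPIα signals were among them, so S100P passed the filter only through arrays of the other groups.

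**Figure D3:**
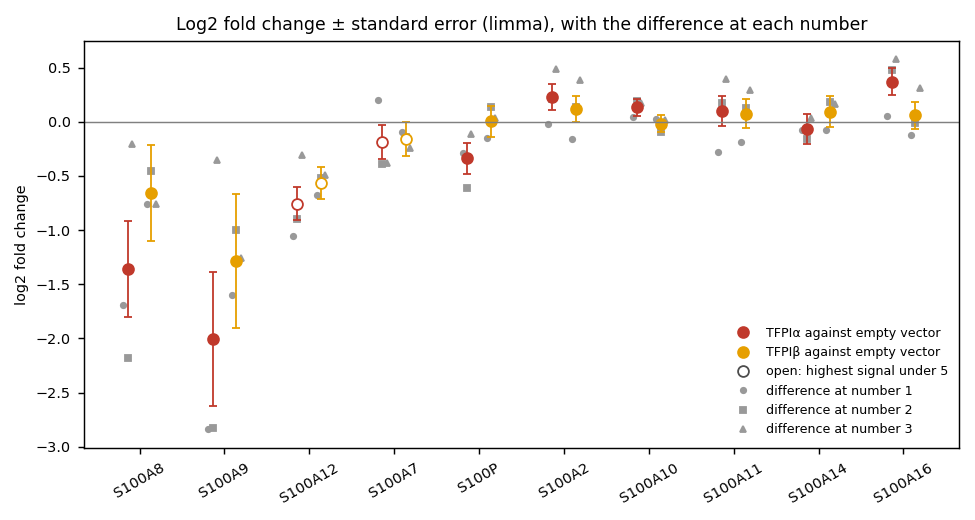
Log2 fold change ± standard error from limma for TFPIα and TFPIβ against empty vector in each of the 10 S100 genes, with grey marks for the difference at each array number; open circles are genes whose highest signal was under 5. S100A8, S100A9 and S100A12 lie below 0 at all 3 numbers in both comparisons, with the number 3 marks of TFPIα nearest to 0.

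Counted together, the 8 members that passed the filter split evenly for TFPIα, with 4 below and 4 above 0 and a median log2 fold change of 0.02 (6 below and 4 above, with a median of -0.13, when S100A12 and S100A7 are counted too), where 50% of all 17482 probe sets were below 0 with a median of 0. For TFPIβ 3 were below and 5 above 0, with a median of 0.03, and 49.5% of all probe sets were below 0. A call is an adjusted p under 0.05 with at least 2-fold difference. Limma called 0 of the 8 for TFPIβ against empty vector. For TFPIβ against TFPIα it called 0 of the members not used in the choice. No calls of members are given for TFPIα against empty vector, since that comparison chose the genes. Over all probe sets 0.00572% were called for TFPIα, 0% for TFPIβ, and 0% between TFPIβ and TFPIα. At an unadjusted p under 0.05, 0 of the 8 passed for TFPIβ against empty vector, where 4.72% of all did. The one-way model also gave 0 there, but 1 passed with the array number as a block and 2 with the compared groups alone in the fit, all lower. For TFPIβ against TFPIα 8.63% of all passed, and among the members not used in the choice these were S100A16 and S100P. S100P passed the filter only through TFPIβ and empty vector arrays, so its place in this count owes something to the filter. With the one-way model or the compared groups alone 0 members passed as higher, so S100P did not pass there. Arrays of TFPIα and empty vector did not overlap in 2 members with lower signals, S100A8 and S100P, and in 2 with higher signals, S100A10 and S100A16, against 8.85% and 14.4% of all probe sets. S100A8 was chosen on this comparison, and S100P was let in by arrays outside TFPIα. The lower count is therefore a description and cannot be read against its share. TFPIβ and empty vector did not overlap in 2 members with lower signals, S100A8 and S100A9, and in 0 with higher signals, against 3.74% and 3.43% of all. The same empty vector arrays had served to choose these 2 genes, so their count cannot be read against that share.

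The likeness of each member to the mean of S100A8 and S100A9 depended on whether group means were kept. After S100A12 came S100P, with r = 0.523 over 9 arrays, and S100A7, with 0.479. S100A11 stood at 0.155 and S100A14 at -0.122, while S100A10, S100A16 and S100A2 were negative at -0.400, -0.411 and -0.452. After the group means were taken off, the order changed. S100A11 then stood at 0.570, S100A16 at 0.290, S100A7 at 0.281 and S100P at 0.175. S100A10 stood at 0.145, S100A2 at 0.010 and S100A14 at -0.361. With 9 arrays of 3 pools these are descriptions only.

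Of 11 further S100 genes 4 passed the filter, and limma called 0 of them in every comparison. S100A3, a cysteine-rich protein of the hair cuticle, had log2 fold changes of -0.47 for TFPIα and 0.02 for TFPIβ. S100A4, which binds non-muscle myosin and is tied to cell motility, had 0.30 and 0.70. S100A13, needed for the release of FGF1 and interleukin-1α without a signal peptide, had 0.27 and 0.18, and S100A6, or calcyclin, 0.10 and 0.18. At an unadjusted p under 0.05, 1 of the 4 passed for TFPIα and 1 for TFPIβ, both with higher signals. Over all probe sets 5.58% passed as lower and 8.59% as higher for TFPIα, and 2.23% and 2.49% for TFPIβ. The larger S100-fused proteins of the cornified layer, such as filaggrin, had 6 genes with a probe set, of which none passed the filter.

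Among 15 receptors and partners of S100 proteins, 11 passed the filter and 0 were called by limma in either comparison with empty vector. For TFPIα 3 of the 11 passed at an unadjusted p under 0.05, all higher, against 8.59% of all probe sets. For TFPIβ 0 did, against 4.72% of all in either direction. The TFPIα count was 2 with the one-way model, the array number as a block or the compared groups alone. The TFPIβ count was 1, higher, with the block. TLR4, the calprotectin receptor, stayed under the filter. Its co-receptor CD14 spread widely, with log2 fold changes of -0.40 for TFPIα and -0.87 for TFPIβ (SE 0.63 each), and LY96, which ties TLR4 to its ligands, had -0.20 and 0.19. BSG, another calprotectin receptor, had -0.14 and -0.21, AGER, which encodes RAGE, -0.09 and -0.02, and the annexin gene ANXA6 0.32 and 0.09.

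The probe sets most like calprotectin over the arrays were ranked by their r with the mean of S100A8 and S100A9, over 11830 probe sets with a single symbol. In 49 of them r was above 0.8, and in 6 above 0.9. SLC39A8, an importer of zinc and manganese at the cell surface, had r = 0.906. Its log2 signals were 8.63, 8.51 and 10.26 on TFPIα arrays, 9.39, 9.08 and 9.07 on TFPIβ arrays, and 10.95, 10.83 and 10.41 on empty vector arrays. The TFPIα arrays split, with array 3 above the other 2. Neither TFPI group overlapped the empty vector arrays, as held for 8.85% of all probe sets as lower in TFPIα and 3.74% in TFPIβ. SLC39A8, like the others ranked here, was picked for following S100A8 and S100A9 over these arrays. Its likeness to them in split and order therefore follows from the pick. SLC39A8 had log2 fold changes of -1.60 for TFPIα and -1.55 for TFPIβ (SE 0.42 each).

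Both probe sets of SAA2, an acute-phase apolipoprotein, were among the 10 most alike. The one with r = 0.903 had signals of 8.23, 8.39 and 9.74 on TFPIα arrays, 9.31, 9.74 and 9.76 on TFPIβ arrays, and 10.63, 11.19 and 11.18 on empty vector arrays, with log2 fold changes of -2.22 and -1.40 (SE 0.38 each). The other had r = 0.894 and log2 fold changes of -0.79 and -0.48 (SE 0.17 each). SAA1 and SAA2 are close copies and may share signal. The remaining 7 moved over smaller ranges: FAM83B (r = 0.934), DPYD, which begins pyrimidine breakdown (0.917), SLC8B1, the mitochondrial sodium and calcium exchanger (0.913), IFI16, a sensor of DNA (0.905), ZC3H12A, an RNase that degrades cytokine mRNA (0.884), ZNF182 (0.880) and DENND2B (0.870). Their log2 fold changes for TFPIα ran between -0.48 for ZNF182 and -0.15 for DENND2B.

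**Figure D4:**
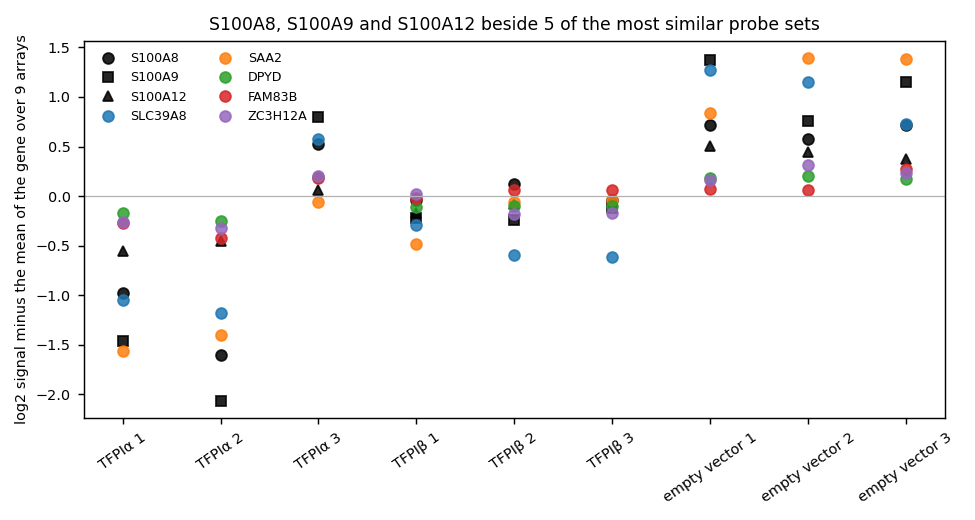
Log2 signal minus the gene's mean over the 9 arrays, for each array of TFPIα, TFPIβ and empty vector, in S100A8, S100A9 and S100A12 (black) and in 5 of the probe sets most like calprotectin (colours). In all of them TFPIα 1 and 2 lie lowest or near it, TFPIα 3 lies apart from those 2, and the empty vector arrays lie above 0. The 5 were picked for their r over these same arrays.

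Cytokines known to induce calprotectin in epithelium, with their receptors, made a list of 16, of which 9 passed the filter. For TFPIα 6 of the 9 were below 0 with a median of -0.34, and for TFPIβ 7 were below 0 with a median of -0.19, against 50% and 49.5% of all probe sets, while none was called by limma. At an unadjusted p under 0.05, 3 passed for TFPIα and 2 for TFPIβ, all lower, as did 5.58% and 2.23% of all probe sets. IL1A, which encodes interleukin-1α, had log2 signals of 5.01, 5.78 and 5.85 on TFPIα arrays, 5.77, 6.49 and 5.83 on TFPIβ arrays, and 6.97, 7.67 and 7.78 on empty vector arrays. Both TFPI groups lay below the empty vector arrays without overlap, with log2 fold changes of -1.92 for TFPIα and -1.44 for TFPIβ (SE 0.31 each, limma adjusted p = 0.665 for TFPIβ). IL1A did not split the TFPIα arrays as S100A8 and S100A9 did, since TFPIα 3 lay near TFPIα 2.

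The receptor IL1R1 had log2 fold changes of -0.96 for TFPIα and -0.13 for TFPIβ, and IL17RC, a subunit of the interleukin-17 receptor, had -0.68 and -0.19. IL1B had -0.50 and -0.68, and OSMR, the oncostatin M receptor, -0.34 and -0.26. IL6, a driver of the acute phase, had log2 fold changes of 0.73 for TFPIα and -0.84 for TFPIβ (SE 0.96 each), with TFPIα arrays between 4.61 and 8.23 and a wide overlap.

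All 12 transcription factors tied to S100A8 and S100A9 in the literature passed the filter, and none was called by limma. For TFPIα 8 were below 0 with a median of -0.09, and for TFPIβ 10 were below 0 with a median of -0.26, against 50% and 49.5% of all probe sets. NFKBIZ, an inducible partner of NF-kB, had log2 fold changes of -0.40 and -0.40, STAT3 -0.38 and -0.40, and NFKB1 -0.32 and -0.38. The study itself reported STAT3 as higher in both TFPI groups, by its array analysis and by qRT-PCR, which is opposite in sign to the values here. The reason was not tested. FOS, a subunit of AP-1, had 0.67 for TFPIα and -0.41 for TFPIβ, with overlap. The epidermal factors GRHL3 and KLF4 had 0.22 and 0.21 for TFPIα, and -0.35 and -0.01 for TFPIβ. At an unadjusted p under 0.05, 1 of the 12 passed for TFPIα and 2 for TFPIβ, all lower, against 5.58% and 2.23% of all probe sets. The TFPIβ count was 4, all lower, with the array number as a block.

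The other antimicrobial and acute-phase genes of epithelium lay below the empty vector arrays in the mean, all 9 of the 9 that passed the filter, for TFPIα and for TFPIβ alike, with medians of -0.55 and -0.69, where 50% and 49.5% of all probe sets were below 0. None was called by limma, and at an unadjusted p under 0.05, 3 passed for TFPIα and 1 for TFPIβ, all lower, against 5.58% and 2.23% of all probe sets. With the array number as a block, 2 passed in each. The 2 comparisons share the empty vector arrays. SAA1 had -0.87 for TFPIα and -0.33 for TFPIβ, without overlap in either. SLPI, a protease inhibitor of mucosal secretions, had -0.57 and -0.26, CXCL1, which draws neutrophils, -0.55 and -0.85, and CCL20 -0.82 and -1.20. Averaged over the 7 genes whose mean over the 9 arrays reached 5, the log2 signal was 8.13, 8.89 and 9.64 on TFPIα arrays, 8.28, 8.98 and 9.06 on TFPIβ arrays, and 9.38, 9.60 and 9.42 on empty vector arrays. TFPIα 3 was again the highest of its group. This average leaves out CAMP and SERPINB3, a serpin of squamous epithelium that passed the filter through TFPIα 3 alone, with signals of 3.05, 3.12 and 6.36 on TFPIα arrays, 3.19, 3.30 and 4.87 on TFPIβ arrays, and 4.70, 4.35 and 4.60 on empty vector arrays.

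Genes of keratinocyte differentiation, among which calprotectin is often counted, were mostly dim where measured. Of 24 listed, 20 had a probe set, and 6 of these passed the filter, with none called by limma. Their median was -0.12 for TFPIα and 0.14 for TFPIβ, and at an unadjusted p under 0.05, 1 passed in each, lower, against 5.58% and 2.23% of all probe sets. For TFPIβ that count was 0 with the one-way model or the compared groups alone, and 1 lower and 1 higher with the array number as a block. TGM1, which cross-links the cornified envelope, had log2 fold changes of -1.30 and -0.81 (SE 0.31 each), KRT16, a keratin of activated epidermis, -0.57 and 0.21, and KRT10, a keratin of the upper epidermis, 0.11 and 0.92. CNFN, CDSN and LCE3D, of the cornified layer, had -0.16, -0.08 and 0.04 for TFPIα, and 0.07, -0.04 and 0.26 for TFPIβ.

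Since neutrophils and monocytes hold far more calprotectin than epithelium, markers of myeloid cells were read on the same arrays. Of 14 with a probe set, 9 stayed under the filter, among them the defining markers PTPRC, LYZ, CSF3R and MPO, whose highest signals over the 9 arrays were 2.28, 2.41, 3.23 and 4.44. The mean of the 5 that passed, CD14, CD68, ELANE, FPR1 and TYROBP, lay between 6.14 and 6.42 on TFPIα arrays, between 6.20 and 6.43 on TFPIβ arrays, and between 6.22 and 6.75 on empty vector arrays. Of 7 fibroblast markers 4 passed the filter, with medians of -0.71 for TFPIα and -0.31 for TFPIβ. Without LUM, which passed through TFPIα 3 and lay under 5 in its mean, the other 3 averaged 7.25, 6.96 and 7.64 on TFPIα arrays, 7.49, 7.17 and 7.63 on TFPIβ arrays, and 7.66, 8.10 and 8.41 on empty vector arrays. They thus lay lower in both TFPI groups, as S100A8 and S100A9 did, with TFPIα 3 the highest of its group. All 6 basal epithelial markers past the filter were below 0 in both comparisons, with medians of -0.20 and -0.19, and 2 of 6 endothelial markers passed the filter. In genes of proliferation, 10 of 10 were above 0 for TFPIα with a median of 1.11, where 50% of all probe sets were below 0. Limma called 0 of them, and 3 passed at an unadjusted p under 0.05, all higher, against 8.59% of all probe sets. That count was 2 with the one-way model, 5 with the array number as a block and 7 with the compared groups alone. In 9 of the 10 the TFPIα arrays lay above the empty vector arrays without overlap, against 14.4% of all. The mean of the 10 lay between 8.89 and 9.03 on TFPIα arrays, between 6.74 and 8.95 on TFPIβ arrays, and between 7.28 and 8.29 on empty vector arrays. TFPIβ 3, at 8.95, lay within the range of the TFPIα arrays, and TFPIα 3, with its high calprotectin, had 8.93, between TFPIα 1 and 2. The part of these markers in the S100 values was not tested.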

How the data were processed

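RNA isolations labelled as SK-BR-3 were hybridised to 9 Affymetrix arrays of the type Human Gene 1.0 ST. The authors deposited log2 signals, 1 for each transcript-level probe set, made by RMA with software of Partek whose version is not given in the sources used here. The log base was read from the range of values. The number of arrays limits the precision. Signals of RMA understate differences of dim probe sets.

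Probe sets whose highest log2 signal was under 5 were removed, leaving 17482 of 33297, and a limma model (version 3.58.1, R 4.3.3) was fitted to the 3 groups at once, with Benjamini-Hochberg adjustment over all of them and calls at adjusted p under 0.05 and at least 2-fold. An exact permutation test of 3 against 3 arrays cannot go below p = 0.1 and was not used. The fit was tested on simulated data. A gene was read from the probe set carrying its symbol alone (the brightest, if several): 19460 probe sets had 1 symbol, 1754 several and 12083 none. The genes described and the lists were chosen with earlier results of these data known. Named were all 10 members, up to 6 genes per list with the largest difference for TFPIα, and the 10 most correlated probe sets; AGER, PGLYRP4 and the markers of other cells were added after their values were seen. Same-numbered arrays deviated from their group means together (r 0.137 to 0.594 over 9 pairs, against -0.512 to 0.266 over 18 other pairs), so the numbers pair the arrays, by this check and not by the labels. Alternatives were the 10% false discovery rate, a one-way model, the compared groups alone, other filters, centred arrays, another variance prior, the number as a block, and each array left out. List means by array were taken over genes whose mean signal reached 5, a choice made after seeing the data. Promoters and gene order came from RefSeq tables of GRCh38.p14; the files name no build. Figures were drawn with matplotlib 3.10.9.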

Additional observations from a re-analysis of the deposited data

How the results depend on the processing

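S100A8 and S100A9 stayed lower than empty vector in both TFPI groups under every alternative run. With single arrays left out, the log2 fold change for TFPIα ran between -1.96 and -0.90 for S100A8 and between -2.86 and -1.43 for S100A9, and for TFPIβ between -0.71 and -0.63 and between -1.45 and -1.15. With the replicate number as a block the values were the same, -1.36 and -2.01 for TFPIα with SE 0.41 and 0.53, and limma adjusted p was 0.782 for S100A8 and 0.693 for S100A9 in TFPIβ; the block moved counts of calls as given next and changed no other call. Called probe sets for TFPIα (1 in the fit reported, ATP1B1) were 0 with the one-way model, the compared groups alone, no filter, centred arrays or the replicate block, and 0 to 4 with single arrays left out. The 4 came without TFPIα replicate 3 and were S100A9, S100A8, SAA2 and SLC39A8, the first 2 being genes chosen on this contrast. TFPIβ against TFPIα had 1 call (a probe set with no symbol) with the replicate block in place of 0, and 0 to 0 with single arrays left out. TFPIβ against empty vector had 0 calls throughout. The study reported many more differential transcripts for each isoform, and the reason for this gap was not tested.

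The directions of the small differences are not settled. S100A11 between TFPIβ and TFPIα turned to 0.016 with centred arrays and ran between -0.0765 and 0.065 with single arrays left out. For TFPIβ against empty vector the same ranges were -0.0461 to 0.0298 for S100A10, -0.00022 to 0.21 for S100A11, -0.0237 to 0.17 for S100A14, -0.00062 to 0.18 for S100A16, -0.0018 to 0.20 for S100A2 and -0.14 to 0.0812 for S100P. For TFPIα against empty vector S100A14 ran between -0.18 and 0.0066, and S100A11 between 0.01 and 0.23. The median over the members was -0.07 to 0.06 for TFPIα, -0.02 to 0.08 for TFPIβ and 0.03 to 0.09 for TFPIβ against TFPIα, and with no filter -0.127, -0.0054 and 0.0942. The cause of these shifts was not tested. The mean of a gene's probe sets in place of the brightest changed nothing, since each member has 1. S100A12, S100A7 and part of the S100P signals lie near background, which limits what they can show.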

Other observations

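The probe sets that followed calprotectin most closely inside the groups, after the group means were taken off, were DPYD (r = 0.978), POT1, a telomere-binding protein (0.973), ECSIT, an adaptor of Toll-like receptor signalling and of mitochondrial complex I assembly (0.963), MAMLD1 (0.955) and PACSIN3 (0.942). These follow the split of the TFPIα arrays, and their ranges were small. MAMLD1 had log2 signals of 5.63, 5.57 and 5.96 on TFPIα arrays, between 5.31 and 5.53 on the other 6, and log2 fold changes of 0.35 for TFPIα and 0.16 for TFPIβ (SE 0.11 each), against the direction of S100A8 and S100A9. The probe sets with the most negative r over the 9 arrays were BIN1, a membrane-bending adaptor (r = -0.936), NAXE, an enzyme that repairs NAD(P)H (-0.924), and STIM2, a calcium sensor of the endoplasmic reticulum (-0.921).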
